A study of Gallus gallus with 12 samples.

Results

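At Hamburger-Hamilton stage HH34 of the chicken embryo, open chromatin of the optic fissure margin (OFM) was compared with that of dorsal retina. All peaks of both HH34 lists entered, 105103 in OFM and 101452 in dorsal retina, or 206555 of the 421414 peaks deposited for the series. Sharing 1 bp or more with a peak from the other tissue, on the same chromosome, made a peak matched. Peaks were ranked by area score within their own list, and the rank was turned into a percentile, where 100 is the strongest peak and 0 the weakest. The embryos were wildtype hy-line chickens, and both tissues were dissected by hand from the embryonic eyes. There were 3 replicates per tissue at HH34, each a pool from 10 embryos. The sex of the pooled embryos is not given in the labels. The assay was omni-ATAC-seq, in which the transposase Tn5 cuts accessible DNA of isolated nuclei, with 50000 cells counted per library and no fewer than 189 M reads of 75 bp paired-end sequencing, per the labels.

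The optic cup folds so that a cleft, the optic fissure, is left along its ventral side. The margins of the fissure meet and fuse during development, and failure to close leaves a coloboma. Ventral and dorsal retina are set apart by opposing transcription factors, with VAX and PAX2 on the ventral side and TBX5 and its relatives on the dorsal side. ATAC-seq peaks mark promoters, enhancers and other regulatory DNA, and distal enhancers are the class that usually differs between parts of a tissue.

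The authors called peaks jointly over the replicates of a group, so each tissue is represented by 1 list and no value has a replicate error. No test between tissues was possible, and intervals given below cover counting error alone. A peak missing from a list may be accessible below the calling threshold. In bulk tissue, fewer open cells and less opening per cell cannot be told apart. Depth per library is not used here. Whether the tissue labels match the genes open in each tissue was not analysed here, because no annotation of the lists' genome build (GRCg6a, per the submitters' processing notes) was used, and no sequence is shown for the same reason. Positions are given on GRCg6a and counted from 1.

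Most accessible sites were shared by the tissues at HH34. In OFM, 11877 peaks had no dorsal counterpart, or 11.3% of its list, and 8327 dorsal peaks had none in OFM, or 8.21% of the dorsal list. The OFM list is longer, and with lists of equal length the counts were 9886 and 9867, nearly equal by construction. The larger OFM count therefore does not show that OFM had more sites of its own. The matched peaks formed 91285 one-to-one pairs, in which each peak was the other's longest overlap. A further 1941 OFM and 1840 dorsal peaks overlapped the other list without being part of such a pair. The pairs were close copies of each other in position. Their summits lay a median of 2 bp apart, 91.4% were within 50 bp, and the overlap covered a median of 94.4% of the longer peak. The smallest overlap within a pair was 99 bp. The smallest gap between an unmatched peak and the other list was 49 bp for OFM and 80 bp for dorsal retina.

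Unmatched peaks were the weak and narrow end of each list. Unmatched OFM peaks had a median width of 207 bp and unmatched dorsal peaks one of 218 bp, against 417 bp and 410 bp for matched peaks. Their median −log10 q at the summit, the authors' value, was 4.09 in OFM and 3.94 in dorsal retina, against 8.55 and 8.22. Of the weakest 25% of each list, 35.8% of OFM peaks and 28% of dorsal peaks were unmatched. In the second 25% the shares were 8.09% and 4.32%, and in the third they were 1.31% and 0.453%. The strongest 25% held 9 unmatched OFM peaks of 26276 and 17 unmatched dorsal peaks of 25363. A site strong in 1 tissue is unmatched only if it falls below the calling threshold in the other. Few unmatched strong peaks therefore do not show that strong sites differed less in opening.

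The unmatched peaks of the tissues lay in different surroundings. An unmatched OFM peak was a median of 2303 bp from the closest dorsal peak, and an unmatched dorsal peak was 1378 bp from the closest OFM peak. More than 10000 bp separated 18.8% of unmatched OFM peaks from the other list, against 10.1% of unmatched dorsal peaks. Within their own list, the closest neighbour was a median of 1780 bp away for unmatched OFM peaks and 1110 bp for unmatched dorsal peaks. Matched peaks had medians of 1146 bp (OFM) and 1166 bp (dorsal retina). Unmatched OFM peaks were therefore the more isolated of the 2 classes in these lists.

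The HH30 lists come from other embryos and took no part in choosing the HH34 peaks, so they show what the sites did at the earlier stage. The tissues differed in this respect. Of the 11877 unmatched OFM peaks, 77.9% (95% Wilson interval 77.1% to 78.6%) overlapped an HH30 OFM peak, and 55.5% (54.6% to 56.3%) also or instead overlapped an HH30 dorsal peak. Of the 8327 unmatched dorsal peaks, 39.3% (38.2% to 40.3%) overlapped an HH30 dorsal peak and 21.3% (20.5% to 22.2%) an HH30 OFM peak. For matched peaks of either tissue these shares lay between 88.0% and 91.7%, but matched peaks are stronger, and shares at like strength are given further on.

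Sorted by both HH30 lists at once, the most frequent class of unmatched OFM peaks was called in both tissues at HH30, with 6260 peaks or 52.7%, below the 82.7% of all OFM peaks. At HH34 these sites were called in OFM and no longer in dorsal retina. A further 2992 (25.2%, against 4.20% of all OFM peaks) were in the HH30 OFM list alone. The HH30 dorsal list alone held 326 (2.74%), and 2299 (19.4%, against 8.28% of all) were in neither. For unmatched dorsal peaks the most frequent class was the opposite one, with 4917 peaks (59.0%, against 11.0% of all dorsal peaks) in neither HH30 list. Both HH30 lists held 1636 (19.6%, against 81.3% of all), the HH30 dorsal list alone 1633 (19.6%, against 6.12% of all) and the HH30 OFM list alone 141 (1.69%). This rests on the weak peaks and on matching by overlap: the share of unmatched dorsal peaks in the HH30 dorsal list, 39.3% here, was 58.5% where both peaks had to be covered by 50%, 56.3% by summits, and 88.7% and 86.4% in the upper 50% of the list, held against the upper 50% or the whole of the other.

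**Figure D1:**
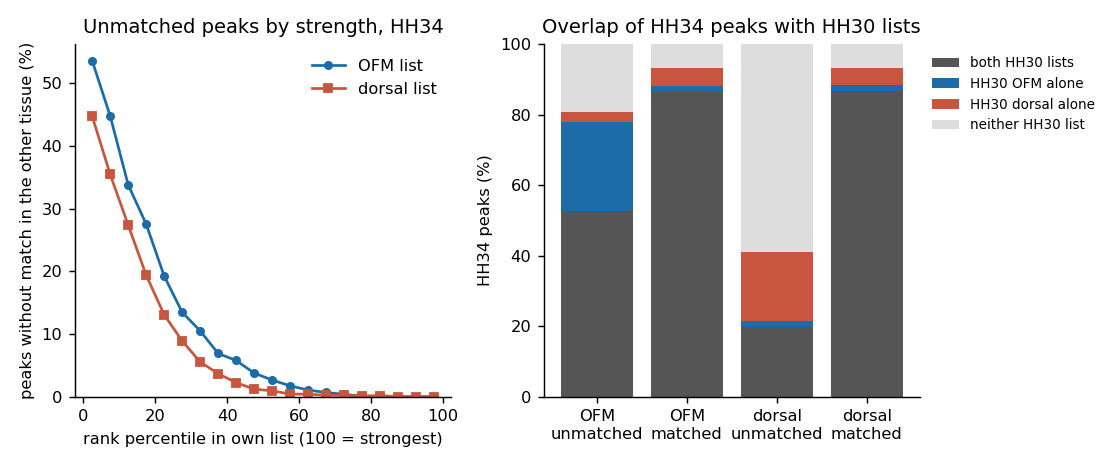
Left, the percentage of peaks without a match in the other tissue (y axis) in bins of 5 rank percentiles (x axis, 100 is the strongest), for the OFM list (circles) and the dorsal list (squares) at HH34. Right, stacked percentages of unmatched and matched HH34 peaks by the HH30 lists they overlap. Unmatched peaks gather at the weak end, and 59.0% of unmatched dorsal peaks but 19.4% of unmatched OFM peaks overlap neither HH30 list.

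The order held in each 25% of the lists below the strongest. Among unmatched peaks of the weakest 25%, 73.4% of OFM peaks were in the HH30 OFM list, against 36.7% of dorsal peaks in the HH30 dorsal list. In the second 25% the shares were 94.3% and 50%, and in the third 97.7% and 84.3%. The 26 unmatched peaks of the strongest 25% were all present at HH30 in their own tissue, as were 99.9% of matched peaks of that strength in either tissue. Matched OFM peaks were in the HH30 OFM list in 57.8%, 85.8% and 97.7% of cases from the weakest 25% to the third. Unmatched OFM peaks were thus called in HH30 OFM more often than matched ones in the weakest and second 25%, and as often in the third. Matched dorsal peaks were in the HH30 dorsal list in 75.9%, 88.7% and 97.7% of cases, above the unmatched ones each time.

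The unmatched OFM peaks that were open in both tissues at HH30 already differed in rank then. Their median percentile was 38.0 in the HH30 OFM list and 21.6 in the HH30 dorsal list, and 84.7% ranked higher in OFM. At HH34 their median percentile in OFM was 14.4. The 1636 unmatched dorsal peaks open in both tissues at HH30 had the reverse order, with medians of 17.9 in OFM and 28.7 in dorsal retina and 23.3% ranking higher in OFM. These sites thus differed in rank between the tissues at HH30 and in being called or not at HH34.

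The strongest unmatched peaks were taken as the 10 best ranks per tissue. In OFM, 4 of these 10 lay within a stretch of chromosome 6. The first, at chr6:30038031-30039295, was 1265 bp wide and stood at percentile 87.8 in OFM at HH34, with −log10 q of 13.3. A gap of 704 bp separated it from the closest dorsal peak. At HH30 the site stood at percentile 90.6 in OFM and 51.9 in dorsal retina, so it was open in both tissues then and ranked higher in OFM.

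The second OFM peak, at chr6:29973694-29974598, stood at percentile 87.2 with −log10 q of 18.1, and lay 15570 bp from the closest dorsal peak. At HH30 it stood at percentile 83.5 in OFM, and the closest dorsal peak of that stage lay 6650 bp off. A neighbour at chr6:29974944-29975457, percentile 76.7, likewise had no dorsal peak at either stage. The fourth peak of this stretch, at chr6:30029550-30030476, stood at percentile 77.2, against 77.0 in OFM and 16.0 in dorsal retina at HH30.

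The other 6 lay on 6 different chromosomes. They were chr21:5941325-5942441 (percentile 81.1), chr2:1294211-1295467 (80.6), chr20:6508337-6509289 (76.5), chr1:21958577-21959301 (76.4), chr12:14812275-14813115 (75.3) and chr4:30244728-30245465 (74.8). All 10 had an HH30 OFM peak and 6 had an HH30 dorsal peak, and each of the 10 ranked higher in OFM at HH30 or had no dorsal peak. The chromosome 4 site changed most in dorsal retina, from percentile 70.8 at HH30 to no call at HH34. The chromosome 1 site stood at percentile 33.4 in OFM at HH30 and 76.4 at HH34, and was in neither dorsal list.

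In dorsal retina, the strongest unmatched peak was chr19:7778751-7781584, 2834 bp wide and at percentile 90.1 with −log10 q of 12.3. It had stood at percentile 88.8 in dorsal retina and 28.1 in OFM at HH30. The nearest OFM peak at HH34 was 654 bp away. This site had the same high rank in dorsal retina at both stages and left the OFM list at HH34.

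Of the 10 strongest unmatched dorsal peaks, 3 lay in a short stretch of chromosome 15, at chr15:12601216-12602466 (percentile 85.0), chr15:12597892-12599455 (84.5) and chr15:12592002-12593189 (82.8). A pair of neighbours lay on Z, at chrZ:35956872-35957929 (84.7) and chrZ:35958942-35959861 (84.7), the latter with the highest −log10 q of the set, 20.2. The nearest OFM peak was 23275 bp from the first of these and 21343 bp from the second. These Z sites went against Z as a whole, on which OFM held the surplus. At HH30 they stood at percentile 87.9 each in dorsal retina and at 62.4 and 52.0 in OFM.

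The remaining 4 were chr1:143648019-143649128 (percentile 84.2), chr3:26402851-26403447 (81.02), chr10:16318917-16319883 (80.9) and chr7:34892211-34893144 (80.8). All 10 had an HH30 dorsal peak, at percentiles 66.8 to 88.8, and 7 had an HH30 OFM peak, at percentiles 8.96 to 68.3. Of the 17 unmatched dorsal peaks of the strongest 25%, which include these 10, 52.9% had an HH30 OFM peak. None of the 10 ranked higher in OFM at HH30. Presence at HH30 in the same tissue does not set these sites apart, since nearly all peaks of the strongest 25% had it.

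Pairs were then compared by rank. The shift is the percentile in OFM minus that in dorsal retina, in percentile points, and a pair was called shifted at 20 points or more. Over all 91285 pairs the median shift was 0.43 points with an SD across pairs of 10.9, and the median absolute shift was 3.98. The pairs higher in OFM numbered 4454, or 4.88% of all pairs, and those higher in dorsal retina numbered 2884, or 3.16%. The OFM list is longer, so a given rank stands at a higher percentile in it by construction. With lists of equal length the counts were 3657 and 3482, and with ranks among the pairs alone they were 3719 and 3158, so the surplus on the OFM side was smaller in both settings. The pairs nearest the threshold had shifts of 20.001 (called) and 19.99 (not called) on the OFM side, and −20.002 and −19.99 on the dorsal side.

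Shifts could show only where ranks have room to move. Pairs with a mean percentile above 90 had none past the threshold, and the SD of the shift was 1.38 between percentiles 90 and 99 and 0.21 above 99. Between percentiles 25 and 50 the SD was 15.1, and 2376 pairs were shifted to OFM and 1511 to dorsal retina. A small shift at a strong peak therefore does not show equal opening.

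Shifted pairs differed in width and in summit strength in the same direction as in rank. Pairs higher in OFM had median widths of 386 bp on the OFM side and 249 bp on the dorsal side, with median −log10 q of 7.33 and 4.33. Pairs higher in dorsal retina had widths of 268 bp and 429 bp in that order, with −log10 q of 4.07 and 6.37. When ranked by −log10 q, 99.9% of the former stood higher in OFM and 0.347% of the latter did. Area score depends on the width of a peak, and area score and q come from the same pile-up. Neither width nor q is therefore a second measurement.

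HH30 gave a view of the same pairs in other embryos. Of the 4454 pairs higher in OFM at HH34, 3753 (84.3%) could be followed to a pair at HH30, and 3460 of these (92.2%) were higher in OFM there too, with a median HH30 shift of 13.6. Of the 2884 pairs higher in dorsal retina, 1150 (39.9%) could be followed, and 1061 (92.3%) were higher in dorsal retina at HH30, with a median of −18.0. Over all 76740 pairs that could be followed, 50.9% were higher in OFM at HH30.

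Past the threshold of 20 at HH30 were 1152 of the followed OFM pairs and 494 of the followed dorsal pairs, or 30.7% and 43.0%. The background at HH30 was 2.80% for OFM and 3.96% for dorsal retina among all followed pairs. That background is not at like strength, since it includes strong pairs, whose ranks have little room to move. At HH34, 0 pairs with a mean percentile above 90 were shifted. Opposite calls were rare, at 15 and 7 pairs. Across the followed pairs the shifts of the stages had Spearman's rho of 0.61 and Pearson's r of 0.61, a description over pairs that share the 4 lists and are not independent. Direction was thus mostly shared between stages among the followed pairs, while a larger share of the dorsal pairs could not be followed. Following needs a one-to-one pair at HH30, so a pair that was not followed can still overlap HH30 peaks.

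**Figure D2:**
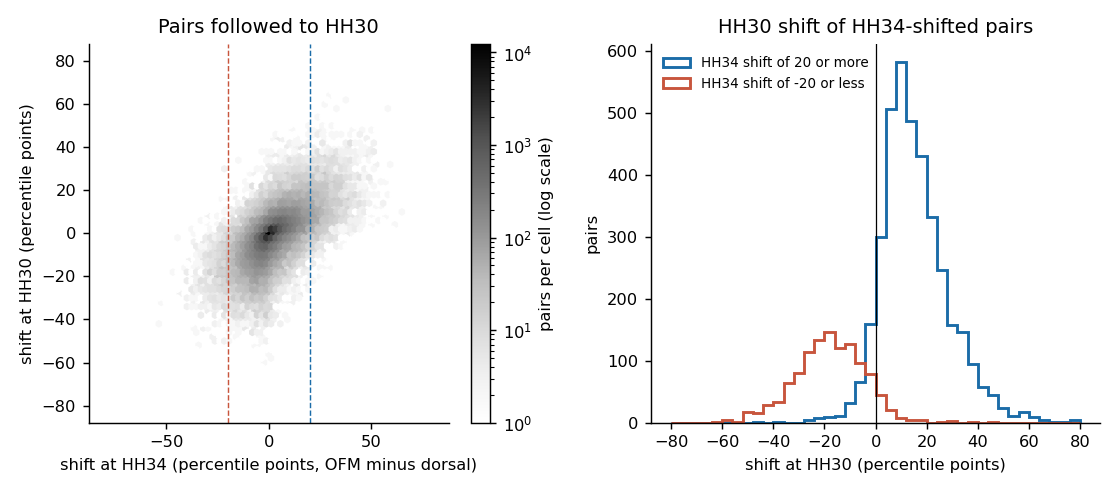
Left, the number of pairs (grey, log scale) by their shift at HH34 (x axis) and at HH30 (y axis), both in percentile points, OFM minus dorsal, with dashed lines at the threshold of 20. Right, histogram of the HH30 shift of pairs shifted at HH34. Of the pairs higher in OFM at HH34, 92.2% lie above 0 at HH30, and of those higher in dorsal retina 92.3% lie below 0.

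Among the 27609 pairs whose better peak was in the upper 25% of its list, 285 were shifted to OFM and 134 to dorsal retina. Both are smaller shares than the 4.88% and 3.16% over all pairs, and ranks have less room to move at the strong end. The 10 with the largest shift per direction were followed. The largest OFM shift was on chromosome 4, where chr4:40414020-40414891 stood at percentile 77.1 in OFM and its dorsal partner, 186 bp wide, at 1.61, a shift of 75.5 points. At HH30 the site stood at percentile 88.8 in OFM and 83.5 in dorsal retina. It had nearly equal ranks at HH30, and the dorsal rank was far lower at HH34.

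The next were chr2:7600060-7600951, with percentiles of 80.03 in OFM and 7.40 in dorsal retina, and chr6:30042461-30043186, with 84.7 and 12.9. The latter lies beside the unmatched OFM peaks of chromosome 6, and its shift was 71.7 at HH34 and 62.0 at HH30. Another, chr21:5937541-5938176, had 76.6 and 17.1 and lay close to the third unmatched OFM peak. At chr1:7820200-7821156 the OFM percentile was 79.5 at HH34 against 21.8 at HH30, while dorsal retina stood at 17.1 and 17.7. The OFM rank differed between the stages there, and the dorsal rank hardly did. All 8 of the 10 pairs that could be followed had a positive HH30 shift, from 4.09 to 62.0.

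The largest dorsal shift was at chr4:56851378-56851860, given like the next by the dorsal peak, with percentiles of 0.0657 in OFM and 75.1 in dorsal retina, a shift of −75.0. At HH30 the shift there was −56.0. At chr10:16290367-16291941 the percentiles were 17.2 and 90.2, and at chr8:22518638-22519840 they were 6.93 and 78.8. The chromosome 10 pair lies near the unmatched dorsal peak of that chromosome, and chr7:34904863-34905523, with 16.2 and 80.3, lies near that of chromosome 7. All 5 of the 10 that could be followed had a negative HH30 shift, from −56.0 to −10.2. The stretch shared by the peaks of a pair overlapped an HH30 dorsal peak in 9 of the 10 and an HH30 OFM peak in 7.

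A few of the dorsal shifts had no like at HH30. The site chr1:90981179-90983005 stood at percentile 14.8 in OFM and 81.4 in dorsal retina at HH34. The closest HH30 peak of either tissue lay 47841 bp from the stretch shared by the pair. At the start of chromosome 22, chr22:19136-20332 stood at 13.5 and 79.2. At HH30 the stretch shared by that pair overlapped a dorsal peak at percentile 2.16 and no OFM peak. The closest HH30 OFM peak lay only 115 bp from the shared stretch. At chr28:4055700-4057736 the percentiles were 22.5 and 81.6, but 44.7 and 40.0 at HH30. At these sites the dorsal rank was higher at HH34 than at HH30, or the site had no HH30 peak.

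Windows with the greatest surplus of unmatched peaks of 1 tissue were picked as extremes. The spread of such counts over all windows was not analysed. Over the whole lists, 11.3% of OFM peaks and 8.21% of dorsal peaks were unmatched. In windows of 500 kb, the greatest surplus of OFM was on chromosome 10 from 17500001 to 18000000, with 30 unmatched OFM peaks and 1 unmatched dorsal peak among 77 and 49 peaks. It was followed by chromosome 1 from 145500001 (27 against 1), chromosome 9 from 20000001 (24 against 0), Z from 48000001 (24 against 0) and chromosome 6 from 30000001 (23 against 0). In the chromosome 9 window all 24 had an HH30 OFM peak and 18 also an HH30 dorsal peak. Over all unmatched OFM peaks these shares were 77.9% and 55.5%.

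The greatest surplus of dorsal retina was on chromosome 15 from 12500001 to 13000000, with 35 unmatched dorsal and 2 unmatched OFM peaks. Chromosome 4 from 500001 (32 against 8), chromosome 10 from 16000001 (27 against 4), Z from 27000001 (21 against 1) and chromosome 25 from 3000001 (22 against 3) followed. The chromosome 15 window held 89 dorsal peaks, and the others 172, 67, 120 and 137 in that order. On chromosome 10 the dorsal window and the OFM window lie little apart, and pairs within them shifted the same way as the unmatched peaks, with medians of −17.1 and 2.26 points. The chromosome 15 window had 28 of its 35 unmatched dorsal peaks in the HH30 dorsal list, against 39.3% of all unmatched dorsal peaks. These shares are not at like strength, since the median percentile was 36.4 for the 35 and 10.3 for all unmatched dorsal peaks. Of the unmatched dorsal peaks in the Z and chromosome 25 windows 0 were in either HH30 list, and 59.0% of all unmatched dorsal peaks were in neither.

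On chromosome 6, the 120 kb from 29940001 on were examined peak by peak. This stretch and those on chromosomes 15 and Z below were chosen after the values had been seen. OFM had 34 peaks and dorsal retina 18, and 19 OFM peaks were unmatched against 0 dorsal peaks. Of the 19, 15 had an HH30 OFM peak and 4 an HH30 dorsal peak, against 77.9% and 55.5% of all unmatched OFM peaks. Those backgrounds are not at like strength. In the 4 strength classes used above, from weakest to strongest, 73.4%, 94.3%, 97.7% and 100% of unmatched OFM peaks were in the HH30 OFM list. In the HH30 dorsal list the shares were 53.2%, 65.0%, 57.7% and 55.6%. The strongest class held only 9 unmatched OFM peaks. Dorsal retina had calls here too, and of 15 pairs 14 ranked higher in OFM (12 when ranked by mean height), with a median shift of 18.5. That median was 11.5 when ranked by −log10 q, and 8.37 over the 10 pairs in which both peaks were covered by 50%. Over all 15 pairs the median percentile was 78.5 in OFM and 28.8 in dorsal retina. At HH30 all 11 pairs that could be followed were higher in OFM, with a median of 8.76.

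On chromosome 15 the picture was reversed and starker. In the 80 kb from 12540001 on, dorsal retina had 28 peaks and OFM 3, each of the 3 overlapping a dorsal peak. All 3 pairs ranked higher in dorsal retina (2 of 3 when ranked by mean height), with shifts from −55.1 to −14.3. The other 25 dorsal peaks were unmatched, with percentiles up to 85.0. Of these, 21 had an HH30 dorsal peak and 8 an HH30 OFM peak, against 39.3% and 21.3% of all unmatched dorsal peaks. Those backgrounds are not at like strength. From the weakest 25% to the third, 36.7%, 50% and 84.3% of unmatched dorsal peaks were in the HH30 dorsal list. In the HH30 OFM list the shares were 20.9%, 21.8% and 40%. OFM had 11 peaks in this stretch at HH30 and 3 at HH34, while dorsal retina had 25 and 28, so OFM had fewer calls there at the later stage.

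**Figure D3:**
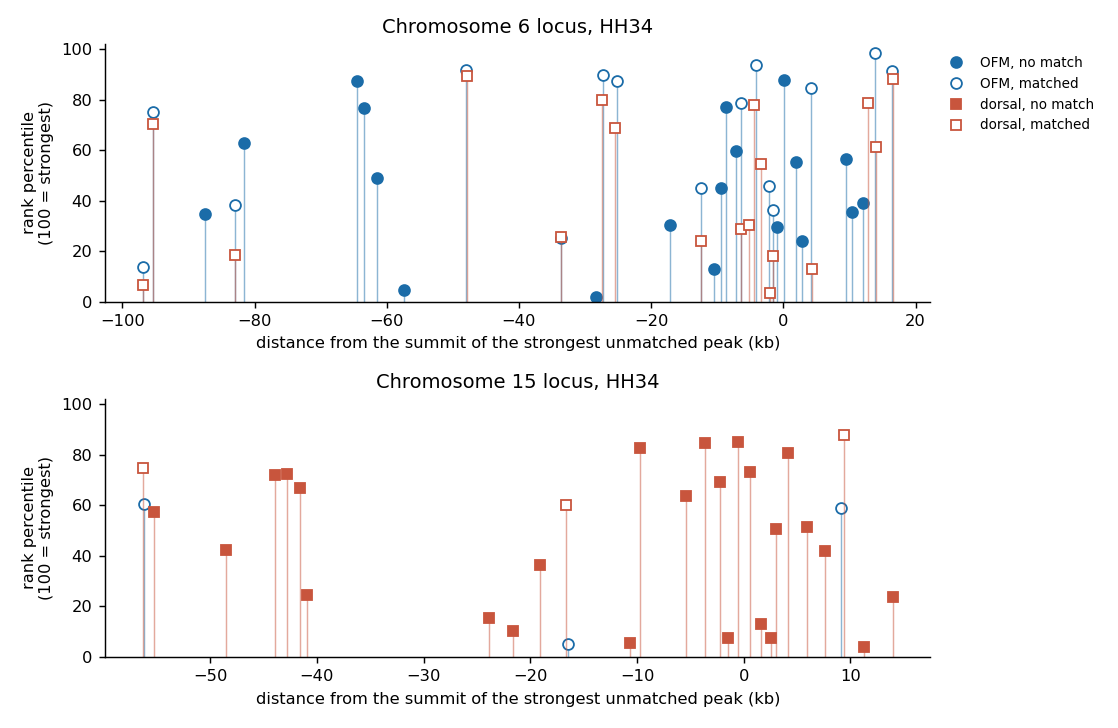
Rank percentile (y axis, 100 is the strongest) of every HH34 peak in the chromosome 6 locus (top) and the chromosome 15 locus (bottom), by distance in kb from the summit of the strongest unmatched peak (x axis). Filled symbols have no match in the other tissue. The top panel has 19 unmatched OFM peaks (filled circles) and no filled square, and the bottom panel 25 unmatched dorsal peaks (filled squares) and 3 OFM peaks.

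Genes at these loci were not placed, because the RefSeq gene table at hand is of another assembly, GRCg7b, and only names and chromosomes were read from it. Of 10 genes listed as ventral or fissure genes, 9 were found in it. VAX1 and PAX2, transcription factor genes of ventral eye and optic stalk, are on chromosome 6, ALDH1A3, for a retinoic acid enzyme of ventral retina, on 10, EPHB2 and EPHB3, for ventral ephrin receptors, on 21 and 9, CHRDL1 on 4, BMPER on 2, SMOC1 on 5 and NTN1, whose product netrin acts in fissure fusion, on 18. All 9 genes listed as dorsal were found. TBX5 and TBX3 are on chromosome 15, TBX2 on 19, the retinoic acid enzyme gene ALDH1A1 on Z, the ephrin genes EFNB1 and EFNB2 on 4 and 1, BMP4 on 5, BMP2 on 3 and GDF6 on 2. Whether any of these genes lies near a region named here was not analysed.

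The chromosomes differed in which tissue held the surplus. On chromosomes 1 to 5, 13.1% of OFM peaks and 7.54% of dorsal peaks were unmatched, and on chromosomes 6 to 10 the shares were 11.2% and 8.45%. On chromosomes 11 to 33, which in chicken are mostly small, gene-dense microchromosomes, the order turned around, with 7.65% and 9.37%. Among peaks of the upper 50% held against the whole other list it did not, and OFM supplied 54.8% of the unmatched peaks there. Over the whole lists OFM supplied 64.8% of the unmatched peaks of chromosomes 1 to 5 and 44.8% of those of chromosomes 11 to 33. With lists of equal length these shares were 56.4% and 35.7%, so the surplus also depends on list length. Among chromosomes with at least 500 peaks in each list, the ratio of unmatched OFM to dorsal peaks was highest on Z (3.93), 4 (2.301) and 1 (1.87) and lowest on 25 (0.316), 23 (0.399) and 33 (0.464).

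Matched pairs leaned the same way. The median shift was 0.92 points on chromosomes 1 to 5 and −0.48 on chromosomes 11 to 33. Of 32 autosomes, 13 had a median above 0, the highest being 1.21 on chromosome 2, and 19 had one below 0, the lowest being −3.68 on chromosome 30. The zero line moves with list length: at equal length the medians were 0.24 and −1.28 for these classes and 6 autosomes lay above 0, while chromosomes 6 to 10 went from 0.52 to −0.07. The order of the classes was the same in each of these settings. At HH30, 30 of the 32 autosomes had a median of the same sign. On chromosome 31 the HH34 median of −2.18 was far from that of −9.18 at HH30, over 235 pairs at HH34.

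**Figure D4:**
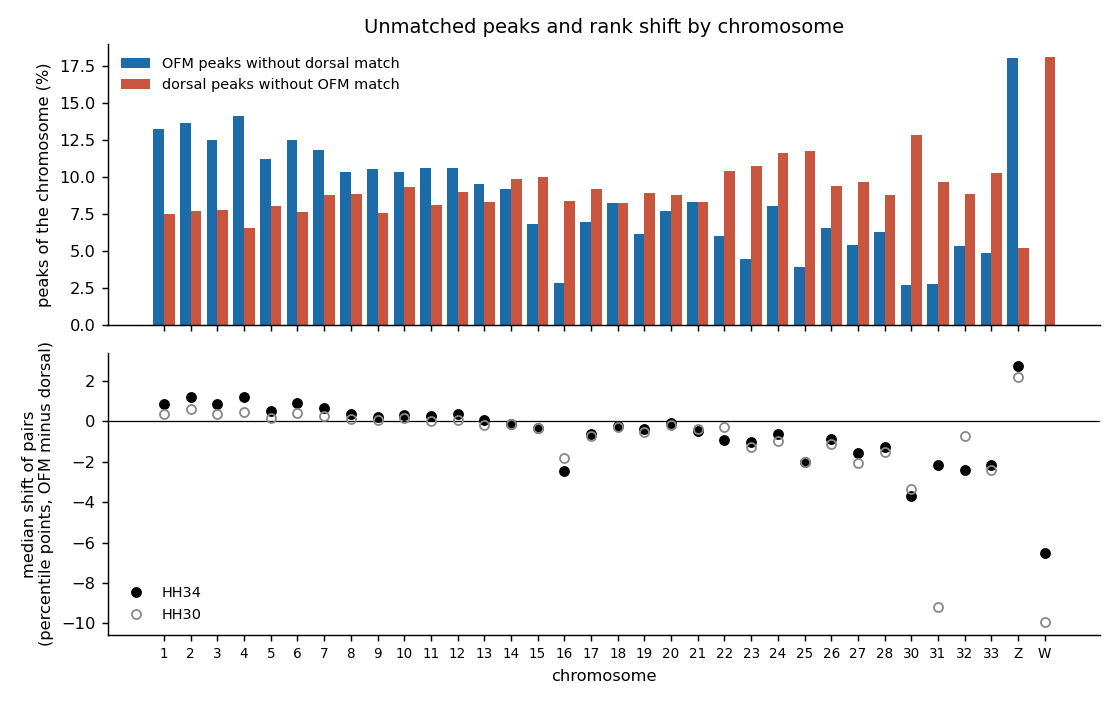
Top, the percentage of OFM peaks and of dorsal peaks on each chromosome (x axis) that have no match in the other tissue at HH34. Bottom, the median shift of pairs in percentile points (OFM minus dorsal) at HH34 (filled) and HH30 (open). OFM has the larger unmatched share on chromosomes 1 to 13, 18, 21 and Z, with nearly equal shares on 18 and 21, and the shift falls from 0.92 on chromosomes 1 to 5 to −0.48 on chromosomes 11 to 33.

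Local peak density varied in the same way within the autosomes. In 964 autosomal windows of 1 Mb with at least 10 pairs, the median of the window shifts was 2.09 in the 67 windows with 10 to 25 pairs, 1.80 with 26 to 50, 1.12 with 51 to 100, 0.22 with over 100 and up to 200, and −0.61 in the 50 windows with more than 200. The class with over 100 and up to 200 pairs changed sign when ranked by mean height (−0.01), among pairs alone (−0.30) or at equal list length (−0.50). The ratio of unmatched OFM to dorsal peaks was 2.43 in the sparsest class, 2.79 in the next and 0.671 in the densest. Spearman's rho between pairs per window and shift was −0.49, given as a description of windows that share the same lists. Base composition and read depth also change with density in bird genomes, and their part in this order was not tested. In the reported setting the shift to OFM thus became smaller as pair density rose, and the median was below 0 only in the densest class.

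The windows with the largest median shift to OFM held few pairs, and so did most of those with the largest shift to dorsal retina. Those to OFM were chromosome 2 from 70000001 (16.8 points over 16 pairs), 71000001 (13.8 over 10 pairs) and 74000001 (12.7 over 19 pairs), and Z from 48000001 (13.1 over 21 pairs) and 69000001 (12.5 over 17 pairs). In the Z window from 48000001 all 21 pairs ranked higher in OFM and 24 OFM peaks were unmatched against 0 dorsal peaks. At HH30 all 5 had a median above 0, between 1.28 and 11.3. The windows with the largest median shift to dorsal retina were W from 5000001 (−9.14 over 17 pairs) and from 1 (−6.66 over 14 pairs), Z from 27000001 (−6.57 over 115 pairs), chromosome 1 from 143000001 (−6.37 over 13 pairs) and chromosome 14 from 16000001 (−5.93 over 29 pairs). All 5 had a negative median at HH30 as well, between −14.9 and −2.96.

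The sex chromosomes stood apart from the autosomes. In birds, males carry a pair of Z chromosomes and females carry 1 Z and 1 W, and dosage compensation of Z is incomplete. On Z, 18.1% of OFM peaks and 5.24% of dorsal peaks were unmatched, and 77.7% of 3879 pairs ranked higher in OFM with a median shift of 2.74. On W, 0 of 91 OFM peaks and 19 of 105 dorsal peaks were unmatched, and 23.3% of 86 pairs ranked higher in OFM with a median of −6.49. Autosomes had 55.2% of pairs higher in OFM. Z and W therefore moved in opposite directions, and the part of the sex makeup of the pools in this was not tested.

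Of 77 windows on Z, 75 had a median above 0. The exceptions were the window from 27000001 and that from 82000001. Within the former, the contrast came from the 300 kb from 27100001 on, where all 88 pairs ranked higher in dorsal retina (79 when ranked by mean height), with a median shift of −11.7 and 25 pairs past the threshold. Dorsal retina had 21 unmatched peaks of 109 here, and OFM 0 of 98. Over all of Z, 2.06% of pairs were shifted to dorsal retina and 5.24% of dorsal peaks were unmatched. Over all chromosomes these shares were 3.16% and 8.21%. At HH30 all 62 pairs of the stretch that could be followed ranked higher in dorsal retina as well, with a median of −8.93. These 300 kb held 31.3% of all Z pairs shifted to dorsal retina, and without them 79.5% of Z pairs ranked higher in OFM.

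The stretch held 98 OFM and 109 dorsal peaks. The summits of the dorsal peaks in pairs were a median of 2221 bp apart, with quartiles of 1921 and 3154 bp. No spacing of this kind is given for other stretches. Within pairs, the median width was 482.5 bp for the OFM peak and 815.5 bp for the dorsal one. Over all pairs these medians were 419 bp and 413 bp. Chicken Z is known to carry a tandem-repeat region named MHM, for male hypermethylated, which is methylated in males and transcribed in females. Whether this stretch is that region was not analysed here, and how reads from repeats were handled is not given in the sources used here.

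**Figure D5:**
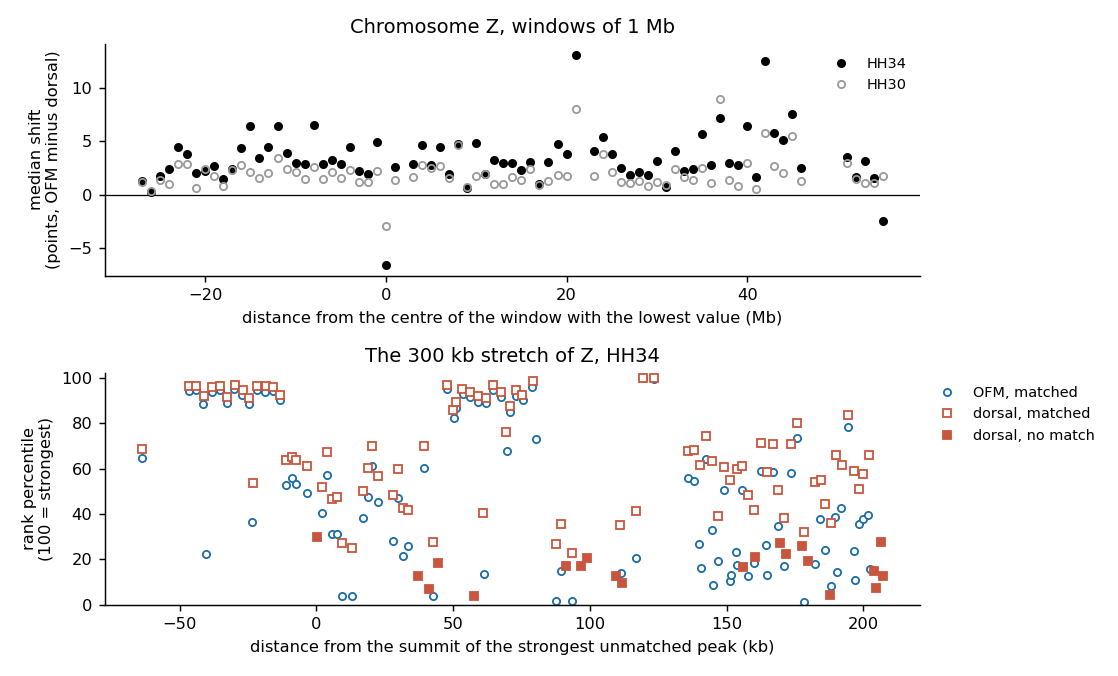
Top, the median shift of pairs in 1 Mb windows of Z (y axis, percentile points, OFM minus dorsal) at HH34 (filled) and HH30 (open), by distance in Mb from the window with the lowest value (x axis). Bottom, rank percentile of HH34 peaks in the 300 kb stretch, by distance in kb from its strongest unmatched peak, with filled squares for the 21 unmatched dorsal peaks. At HH34, 75 of 77 windows lie above 0, and in the stretch all 88 dorsal partners rank above the OFM ones.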

How the data were processed

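The authors deposited 1 peak list per group, called jointly over its 3 replicates with Genrich, per the labels. The submitters' processing notes name Trim Galore, cutadapt 1.16, Bowtie2 2.3.4.3, SAMtools 1.6, Genrich 0.6, deepTools 3.5.0 and the build galGal6 (GRCg6a); settings, filters and any Tn5 shift are not given in the sources used here, and each can change the number and width of peaks. The lists have no header. The deposited area signal (column 7, from just above 200) ranked the peaks, the deposited −log10 q-value at the summit was described, and the deposited score (column 5) follows from area and width. The area scale is not recorded, so only ranks were compared between lists.

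Matching, ranks and windows were computed in Python 3.11.15 with NumPy 2.4.6, pandas 2.3.3 and SciPy 1.17.1, and tested on simulated data. Each group is 1 list, so no test was made. Named were the 10 best-ranked unmatched peaks per tissue, the 10 largest shifts per direction among pairs with a peak in the upper 25%, 5 windows of each kind and the chromosomes with the 3 highest and 3 lowest ratios. Columns of single samples numbered 0. Gene lists near peaks were planned and not run for want of an annotation of the build. The comparison, the lists and the rules were chosen with earlier results of these data known. The stretches examined peak by peak, the density classes and the limit of 5 points for windows were set after the values had been seen.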

Additional observations from a re-analysis of the deposited data

Results flagged for a closer look

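On Z, the 1 Mb window from 82000001 had medians of opposite sign at the stages, taken over different sets of pairs. Its 53 pairs had a median shift of −2.45 points (higher in dorsal retina) at HH34. The 19 of them that could be followed had 1.74 (higher in OFM) at HH30. The HH34 median of these 19 alone is not given here, so a change between stages is not shown. The difference was not tested, since each group is 1 list. At HH34 the window had 8 OFM peaks and 17 dorsal peaks without a match.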

How the results depend on the processing

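No paired analysis was possible because the lists hold no value per replicate, although replicates are numbered 1 to 3 in each group. Fits without single replicates could not be made either, since no file holds a replicate's own peaks. Depth per library is not used here, so how far a missing peak reflects depth was not tested. Of 89 values recomputed, 43 stayed within 1.5 times the reported count, inside the Wilson interval of the reported share or on the reported side of 0, and 46 did not. The OFM share on chromosomes 11 to 33 went from 44.8% to 54.8%, so the surplus passed from dorsal retina to OFM, in the upper 50% against the whole other list. The median shift of chromosomes 6 to 10, counted apart, went from 0.52 to −0.07 at equal list length. The cause was not tested in either case. Leaving out Z and W, added after the data had been seen, moved none of the counts or shares.

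Unmatched OFM and dorsal peaks numbered 5369 and 3661 in the upper 50% of both lists, and 354 and 132 where the upper 50% was held against the whole other list, which shortens the lists by construction. Unmatched dorsal peaks numbered 13826 where both peaks had to be covered by 50%. At equal list length the counts were 9886 and 9867, nearly equal by construction.

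The share of unmatched OFM peaks in the HH30 OFM list became 79.1% by summits within 200 bp, 79.1% with no peak within 500 bp, 98.2% in the upper 50% of both lists, 97.7% in the upper 50% against the whole list and 81.1% at equal length. Their share in the HH30 dorsal list became 65.3% with 50% coverage, 64.3% by summits, 93.3% and 57.6% in the upper 50% (both lists, whole other list) and 57.4% at equal length. For unmatched dorsal peaks, the share in the HH30 OFM list became 46.4%, 43.7%, 73.3%, 41.7% and 24.2% in the same order, and that in the HH30 dorsal list 58.5%, 56.3%, 88.7%, 86.4% and 41.9%. In each of these settings a larger share of unmatched OFM peaks than of unmatched dorsal peaks was in the HH30 list of its own tissue. The share in the HH30 dorsal list was larger for OFM peaks except in the upper 50% against the whole other list, where it was 57.6% against 86.4%.

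OFM supplied 80.1% (upper 50% against the whole list) and 56.4% (equal length) of unmatched peaks on chromosomes 1 to 5, 54.8% and 35.7% on chromosomes 11 to 33, and 85.2% and 74.5% on Z. Shifted pairs numbered 1555 to OFM and 892 to dorsal retina at a threshold of 30 points, and 12894 and 9457 at 10 points. The share with the same sign at HH30 became 82.3% (OFM) and 79.99% (dorsal) when ranked by mean height, 93.0% and 94.2% when ranked among pairs alone, 95.5% and 94.9% at 30 points, and 84.5% and 89.3% at 10 points. Autosomal windows with a median of at least 5 points to OFM, 26 in the reported setting, numbered 7 in windows of 2 Mb and 17 when ranked among pairs. Those to dorsal retina, 4 as reported, numbered 2 in windows of 2 Mb. The stretches on chromosomes 6, 15 and Z kept the sign of their median in every setting that gave one, with a range of 8.37 to 19.5 on chromosome 6.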

Other observations

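Some broad domains differed in extent while keeping a high rank in both tissues. The pair with the largest surplus of width in dorsal retina lay on chromosome 31, at chr31:4699318-4723084 in dorsal retina (23767 bp, rank 2) against 12287 bp and rank 7 in OFM. On chromosome 28, chr28:4076318-4086940 was 1 dorsal peak of 10623 bp, rank 86, whereas its OFM partner was 2962 bp wide at rank 1181. The dorsal peak overlapped 5 OFM peaks. On chromosome 4, chr4:1047376-1056243 was 8868 bp wide in dorsal retina at rank 139, overlapped 6 OFM peaks, and its OFM partner of 1951 bp had rank 8479. This site lies beside the 500 kb window of chromosome 4 with 32 unmatched dorsal peaks.

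In the other direction, chr16:1795370-1810672 was 15303 bp wide in OFM at rank 2, against 9542 bp and rank 4 in dorsal retina. Not every such pair ranked high: chr1:88612135-88619388 was 7254 bp wide in OFM at rank 9182, against 2548 bp and rank 30072, a shift of 20.9 points. At chr9:13085737-13095018 the OFM peak was 9282 bp wide at rank 41, against 4676 bp and rank 2149 in dorsal retina. On chromosome 9, chr9:16131016-16136675 was 1 OFM peak of 5660 bp over 5 dorsal peaks. In all, 1780 OFM peaks overlapped at least 2 dorsal peaks and 1839 dorsal peaks overlapped at least 2 OFM peaks. Merging of neighbouring peaks by the caller changes such widths, and its settings are not given in the sources used here. These regions were chosen after their values had been seen.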
